A study of Mus musculus with 15 samples.

Results

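The classical cadherins and catenins described here are 8 mouse genes: Cdh1, Cdh2, Cdh3, Cdh6 and Cdh11, and the catenin genes Ctnna1, Ctnnb1 and Ctnnd1. Accessible regions were assigned to them by position, taking every peak of a merged table that overlapped a gene record or lay within 50 kb of it on mouse build mm10. This gave 77 peaks of 67945 in the table, 39 of them inside a gene record. The Cdh1 and Cdh3 windows share 8 peaks, and the Cdh11 window holds 0.

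Open chromatin was profiled with ATAC-seq, an assay that reads where a transposase can cut DNA, in tumour cells sorted from mouse pancreatic tumours. Clones of tumour cells had been implanted subcutaneously in C57BL/6 animals, and after 3 weeks 50000 tumour cells were sorted for each clone, with no treatment in any group. The T cell high group has 6 clones, named 6421c2, 6499c4, 6555c3, 6620c1, 7160c2 and 2838c3. The T cell low group has 7, named 6419c1, 6419c5, 6422c1, 6499c3, 6556c3, 6694c2 and 2699c4. Each clone had 1 library, and the labels do not say how many mice or tumours it came from, so the clone is the replicate and the error is the spread between clones. The labels name no genotype for the clones beyond the strain. The same number before the letter c occurs in 6419c1 and 6419c5, both T cell low, and in 6499c4 (T cell high) and 6499c3 (T cell low).

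Classical cadherins are transmembrane proteins that bind cadherins on the neighbouring cell and hold adherens junctions together. Their cytoplasmic tails bind p120-catenin and beta-catenin, and alpha-catenin links the complex to actin. Beta-catenin also works in the nucleus as the coactivator of Wnt signalling, and loss of E-cadherin with gain of N-cadherin, the cadherin switch, is a well known feature of carcinoma cells that take on mesenchymal traits.

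Total counts in peaks ranged from 968296 in 7160c2 to 5936823 in 6499c4 among T cell high clones, and from 1030616 in 6556c3 to 7369228 in 6419c1 among T cell low clones. Levels are given as CPM, counts scaled to the same total of reads in peaks, on effective library sizes. On the first principal component of log2 CPM, which held 18.2% of the variance, 2838c3 stood apart from its group, with a score of 142.3, while the other T cell high clones lay between -154.8 and -31.3 and the T cell low clones between -46.7 and 96.7. All 7 epithelial tumour markers on the list used (Epcam, Cldn7, Muc1 and the keratins Krt7, Krt8, Krt18 and Krt19) had a peak at a gene start or end. So did 3 of 12 fibroblast and pericyte markers, 2 of 10 leukocyte markers and 0 of 7 endothelial markers. The summed level of the fibroblast and pericyte markers ranged from 32.0 to 53.4 CPM in T cell high clones and from 33.9 to 54.3 CPM in T cell low clones. That of the leukocyte markers ranged from 16.8 to 51.8 CPM in T cell high clones and from 31.5 to 68.0 CPM in T cell low clones.

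For each gene the main peak is the peak with the highest mean count within 1 kb of an annotated start, or of either end of the gene record where the reference table gave no start. The starts of 3 members are in that table, and 250 bases before 4 of them are shown because the peaks over them, or the lack of one, are described next. The sequences are from RefSeq (GRCm38.p6), 5′ to 3′ on the gene's strand. Capitals mark the CCAAT box (CCAAT or ATTGG) and the GC box (GGGCGG or CCGCCC).
Ctnnb1, chr9:120933150-120933399, plus strand: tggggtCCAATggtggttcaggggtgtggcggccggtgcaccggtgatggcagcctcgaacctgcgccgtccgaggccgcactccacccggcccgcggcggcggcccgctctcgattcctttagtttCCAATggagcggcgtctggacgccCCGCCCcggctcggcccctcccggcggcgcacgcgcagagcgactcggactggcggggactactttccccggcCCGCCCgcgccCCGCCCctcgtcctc
Cdh6, chr15:13173676-13173925, minus strand: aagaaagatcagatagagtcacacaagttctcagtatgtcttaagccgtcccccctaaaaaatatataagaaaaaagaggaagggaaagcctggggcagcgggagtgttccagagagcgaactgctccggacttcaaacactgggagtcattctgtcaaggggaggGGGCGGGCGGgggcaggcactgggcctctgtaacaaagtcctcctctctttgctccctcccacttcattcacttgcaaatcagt
Ctnnd1 distal start, chr2:84658978-84659227, minus strand: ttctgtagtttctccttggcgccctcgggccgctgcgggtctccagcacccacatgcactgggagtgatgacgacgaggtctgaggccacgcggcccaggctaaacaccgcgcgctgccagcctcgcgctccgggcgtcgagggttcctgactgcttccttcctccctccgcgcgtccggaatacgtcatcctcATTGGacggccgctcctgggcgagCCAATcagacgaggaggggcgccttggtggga
Ctnnd1 internal start, chr2:84650741-84650990, minus strand: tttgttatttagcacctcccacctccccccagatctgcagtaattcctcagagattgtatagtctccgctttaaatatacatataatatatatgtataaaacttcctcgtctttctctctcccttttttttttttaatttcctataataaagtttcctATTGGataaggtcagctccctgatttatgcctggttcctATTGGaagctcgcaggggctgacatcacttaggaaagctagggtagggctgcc

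These windows differed in base composition. The Ctnnb1 window was 74.8% G and C with 35 CpG dinucleotides, 2 CCAAT boxes and 3 GC boxes, and lay under a peak. The Cdh6 window was 51.2% G and C with 6 CpG and 2 overlapping GC boxes, and also lay under a peak. At Ctnnd1, which has several starts, the CpG-rich distal window (66.8% G and C, 26 CpG, 2 CCAAT boxes) had no peak within 7832 bp. The internal window (40.0% G and C, 3 CpG, 2 CCAAT boxes) lay under one. Among 32851 annotated start windows of the same length, 41.6% were under a peak, and among the 3150 with at least as many CpG as the distal Ctnnd1 window 87.5% were. The E2-box bound by Snail and Zeb repressors, CACCTG or CAGGTG, was in none of the 4 windows and in 17.2% of all windows. The CCAAT box was in 33.8% and the GC box in 32.7% of all windows. These are matches of letters on either strand within 250 bases and say nothing of binding.

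T cell high clones were compared with T cell low clones peak by peak by edgeR's quasi-likelihood test, adjusted over all 59252 peaks that passed a filter on low counts. None of the cadherin and catenin peaks passed an adjusted p of 0.05. Of the 77 peaks, 68 passed the filter and were tested. By edgeR 0 of these were called, as were 0 of all peaks (0%). By DESeq2 0 were called, against 47 of 59227 peaks (0.0794%). At an unadjusted p under 0.05, 3 of the 68 passed (4.41%), against 6.83% of all peaks. Which share was larger depended on the setting: it was 7.35% of member peaks against 6.18% of all with the dosage correction explained below, and 9.72% against 7.58% without 6421c2. Of the 3 that passed with all clones and without that correction, 1 was higher in T cell high clones (1.47%, against 3.86% of all peaks) and 2 were lower (2.94%, against 2.96%). Without 2838c3, 42 of 59478 peaks were called (0.0706%) and 0 member peaks, and 6 of 72 member peaks had an unadjusted p under 0.05 (8.33%), against 10.7% of all peaks. With all clones the 3 were a peak before Ctnnb1, the main peak of Cdh2 and a peak inside Cdh6. The log2 fold changes of T cell high over T cell low clones ran from -1.47 to 1.27 with a median of -0.06, against a median of 0.01 for all peaks, and the smallest adjusted p was 0.585. They were below 0 at 43 of 68 peaks (63.2%), against 48.7% of all peaks and 60.4% of the main peaks of all genes.

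**Figure D1:**
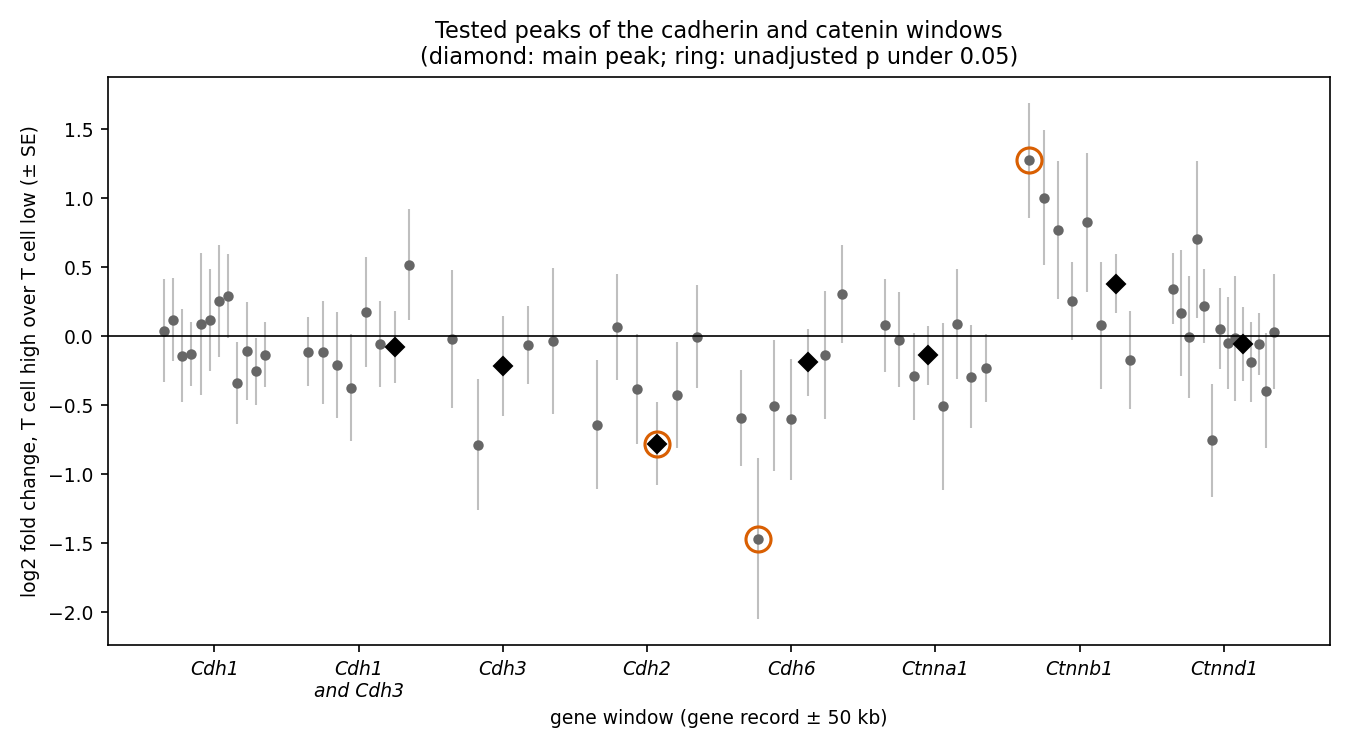
Log2 fold change of T cell high over T cell low clones (y axis, with the standard error as bars) at the 68 tested peaks, grouped by gene window on the x axis. Diamonds are the main peaks and rings mark the 3 peaks with an unadjusted p under 0.05: the most negative is in Cdh6 (-1.47) and the most positive in Ctnnb1 (1.27).

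The type I cadherin genes come first. Cdh1 encodes E-cadherin, the main cadherin of epithelial cells. Its main peak (chr8:106602970-106603885, at the end of the gene record with the lower coordinate) had a lowest, median and highest level of 15.96, 24.8 and 31.8 CPM in T cell high clones and 14.8, 26.1 and 35.5 CPM in T cell low clones. The groups covered nearly the same range, and each held clones near 15 and clones above 30 CPM. The means were 24.6 ± 7.34 CPM in T cell high clones (SD, n = 6) and 26.0 ± 7.87 CPM in T cell low clones (SD, n = 7). The log2 fold change was -0.08 (SE 0.26, edgeR adjusted p = 0.973), and 0.03 after a dosage correction, which subtracts from each peak and clone the median deviation of the other peaks within 5 Mb.

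The Cdh1 window held 20 peaks, all tested, with a log2 fold change above 0 at 8 and below 0 at 12, and none passed an unadjusted p of 0.05. Their fold changes ran from -0.37 to 0.52 on the log2 scale. The peak 14.3 kb before the main peak (chr8:106588570-106589620), in the stretch between Cdh3 and Cdh1 had a lowest, median and highest level of 13.8, 34.3 and 61.7 CPM in T cell high clones and 15.9, 33.1 and 56.3 CPM in T cell low clones. Both extremes were in T cell high clones, 6555c3 at the bottom and 2838c3 at the top. Their difference was wider than the gap between the means, 33.9 ± 17.3 CPM in T cell high clones (SD, n = 6) and 35.4 ± 14.7 CPM in T cell low clones (SD, n = 7). A peak 79.9 kb after the main peak lies at a start of the neighbouring gene Tango6, so the window is not all Cdh1.

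Cdh3 encodes P-cadherin and lies beside Cdh1 on chromosome 8. Its main peak (chr8:106510248-106511735) was the faintest of the set. The lowest, median and highest levels were 5.82, 12.997 and 20.9 CPM in T cell high clones and 7.31, 12.4 and 32.3 CPM in T cell low clones. The clone 6422c1 was above all others and 2838c3 below all others, and the groups overlapped. The means were 13.3 ± 5.20 CPM in T cell high clones (SD, n = 6) and 15.2 ± 8.21 CPM in T cell low clones (SD, n = 7), which gave a log2 fold change of -0.21 (SE 0.36, edgeR adjusted p = 0.942). Without 6422c1 it was 0.10.

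Of the 14 Cdh3 window peaks 13 were tested, 2 with a log2 fold change above 0 and 11 below, and none passed an unadjusted p of 0.05. A peak inside the gene, 19.1 kb from the main peak (chr8:106529776-106530333), varied more than the main peak. It was at 36.0 CPM in 2838c3 and between 0.997 and 14.9 CPM in the other T cell high clones, against 5.36 to 19.7 CPM in T cell low clones. The highest and the lowest clone were thus both T cell high, and the means were 10.96 ± 13.2 CPM in T cell high clones (SD, n = 6) and 11.7 ± 4.37 CPM in T cell low clones (SD, n = 7). The lowest value was a single read in 7160c2, the library with the fewest reads. A peak outside the Cdh3 gene record (chr8:106500562-106501377) had 3.40 ± 2.71 CPM in T cell high clones (SD, n = 6) and 6.21 ± 2.16 CPM in T cell low clones (SD, n = 7). Its log2 fold change was -0.79 (edgeR adjusted p = 0.792), and -1.29 without 2838c3.

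Cdh2 encodes N-cadherin, the cadherin of neural and mesenchymal cells. Its main peak (chr18:16807768-16809989, 2222 bp, at the higher end of the gene record) was the only member peak at which the groups did not overlap. The level was 65.4 CPM in 2838c3, 7.76 in 6421c2, 67.5 in 6499c4, 62.4 in 6555c3, 74.3 in 6620c1 and 37.9 in 7160c2, the T cell high clones. In the T cell low clones it was 87.0 CPM in 2699c4, 97.6 in 6419c1, 85.8 in 6419c5, 90.4 in 6422c1, 97.2 in 6499c3, 95.2 in 6556c3 and 81.6 in 6694c2. Every T cell high clone lay below every T cell low clone, and the T cell low clones were close together while 1 T cell high clone, 6421c2, was far below the rest. The value in 6421c2 rests on 25 reads, and that in 7160c2 on 38.

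The means at the Cdh2 main peak were 52.5 ± 25.2 CPM in T cell high clones (SD, n = 6) and 90.7 ± 6.21 CPM in T cell low clones (SD, n = 7). The log2 fold change was -0.78 (SE 0.30), with an unadjusted p of 0.0163 and an adjusted p of 0.666 by edgeR, so it was not called over all peaks. An exact two-sided permutation test over the 13 clones gave p = 0.000583, the smallest that 1716 splits allow, unadjusted and for 1 of 7 main peaks tested in this way. This p follows from the lack of overlap between the groups, so it restates that separation and is no further support. T cell high clones lay wholly below T cell low clones at this 1 of 68 member peaks and at 56 of all 59252 peaks (0.0945%). They lay wholly above at 0 of 68, against 40 of all peaks (0.0675%). Without 6421c2 the log2 fold change was -0.55, and over all single clones left out it ran from -0.92 to -0.55, with a lowest adjusted p of 0.325. With the dosage correction it was -0.69.

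This regional deviation was -0.15 on the log2 scale for 6421c2 around Cdh2, from 179 peaks. The peaks inside Cdh2, 68.0 and 63.8 kb from the main peak, were also lowest in 6421c2, at 3.73 and 2.17 CPM. In the other clones they ranged from 9.75 to 33.3 CPM and from 11.97 to 41.1 CPM. The peaks outside the gene record, 7.3 and 13.4 kb beyond the main peak, were at 3.41 and 5.90 CPM in 6421c2, within the ranges of the other clones (2.16 to 7.34 CPM and 2.78 to 10.3 CPM). At the 3 other peaks inside the gene, all faint, 6421c2 was at 1.86, 1.55 and 2.79 CPM and another clone was lower. In bulk libraries of sorted cells, fewer cells with an open site and a less open site in each cell cannot be told apart.

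**Figure D2:**
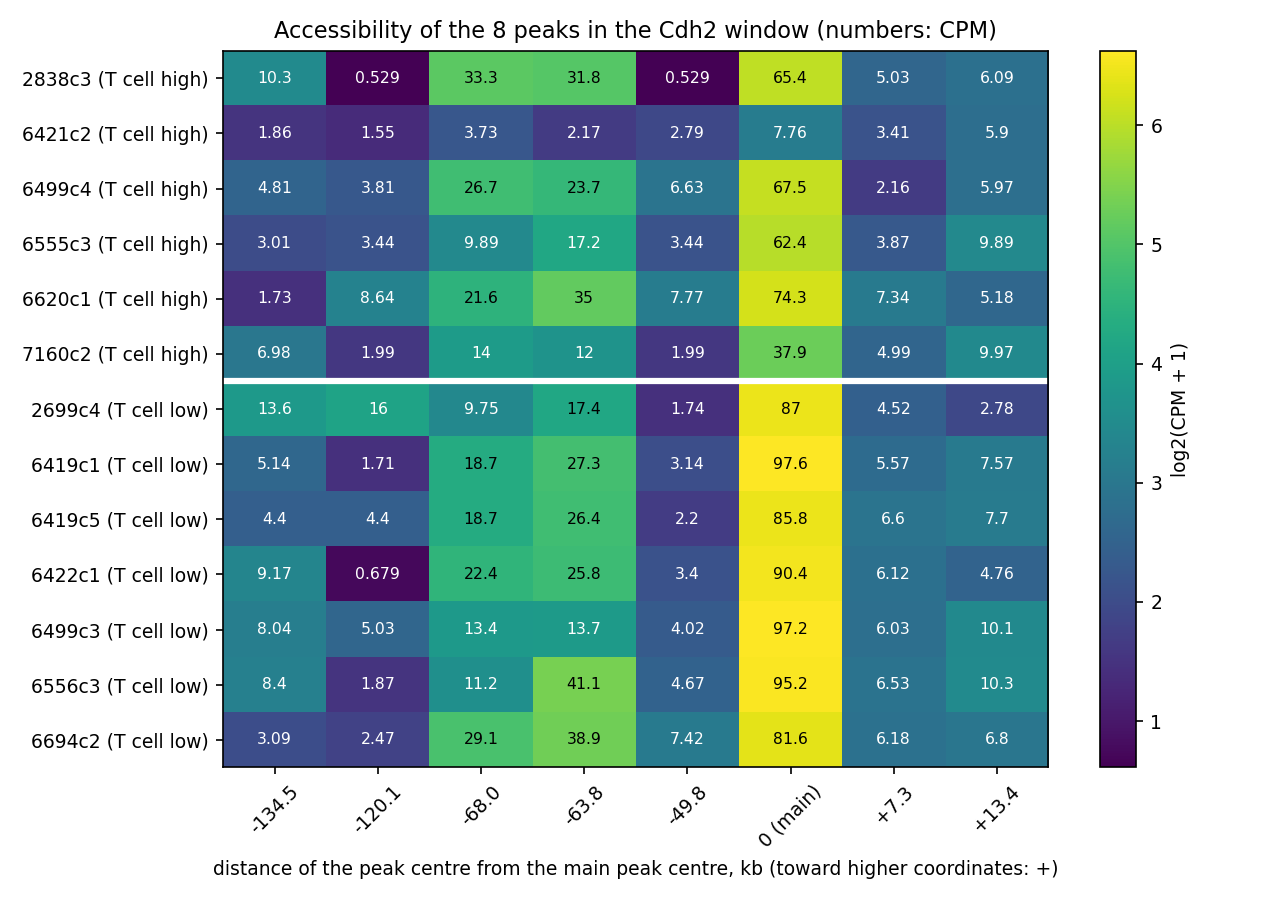
CPM of the 8 peaks of the Cdh2 window (x axis, distance of the peak centre from the main peak centre in kb) in each clone (y axis, T cell high above T cell low), with colour giving log2(CPM + 1). The main peak is between 81.6 and 97.6 CPM in all T cell low clones and at 7.76 CPM in the T cell high clone 6421c2.

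Of the 8 Cdh2 peaks 6 were tested, 1 with a log2 fold change above 0 and 5 below. The main peak was the only one with an unadjusted p under 0.05. The counts of all Cdh2 peaks together averaged 114.6 ± 49.6 CPM in T cell high clones (SD, n = 6) and 164.4 ± 10.01 CPM in T cell low clones (SD, n = 7), and 6421c2 was lowest at 29.2 CPM. The log2 fold change of these sums was -0.49 (SE 0.25, edgeR adjusted p = 0.672), and -0.29 without 6421c2. Of the clones whose names share a number across the groups, 6499c4 (T cell high) was at 67.5 CPM at the main peak and 6499c3 (T cell low) at 97.2 CPM.

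**Figure D3:**
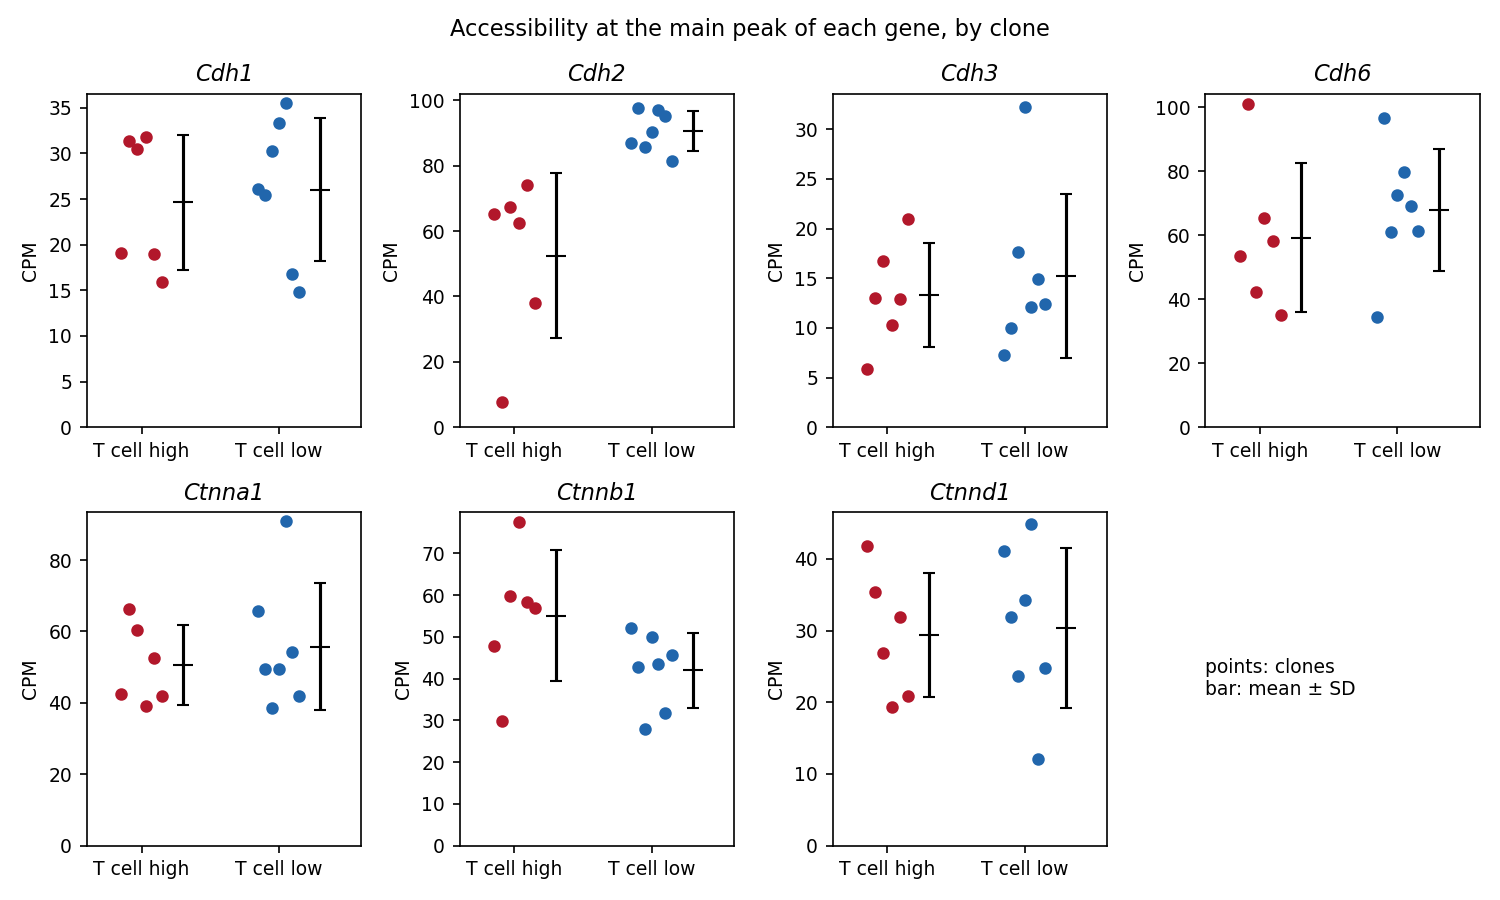
CPM at the main peak of the 7 genes that have one (y axis, from 0), with 1 point per clone, T cell high left and T cell low right, and the mean with its SD beside the points. The groups overlap at every gene but Cdh2, where the highest T cell high clone is at 74.3 CPM and the lowest T cell low clone at 81.6 CPM.

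The type II cadherin genes follow. Cdh6 encodes K-cadherin, which is known from developing kidney. Its main peak (chr15:13171581-13174101, 2521 bp) had a lowest, median and highest level of 34.9, 55.9 and 100.9 CPM in T cell high clones and 34.5, 69.1 and 96.6 CPM in T cell low clones. The groups overlapped over nearly their whole range. The highest clone was 6421c2, the clone with the lowest Cdh2 main peak. The means were 59.2 ± 23.2 CPM in T cell high clones (SD, n = 6) and 67.8 ± 19.1 CPM in T cell low clones (SD, n = 7), which gave a log2 fold change of -0.19 (SE 0.24, edgeR adjusted p = 0.915), or -0.41 without 6421c2.

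Of the 8 Cdh6 peaks 7 were tested, 1 with a log2 fold change above 0 and 6 below. The largest difference was at a faint peak inside the gene, 82.2 kb from the main peak (chr15:13090334-13090947). It had 0, 1.71 and 5.18 CPM as lowest, median and highest level in T cell high clones, against 2.44, 5.10 and 15.9 CPM in T cell low clones. The groups overlapped, with 6421c2 and 6620c1 the T cell high clones inside the T cell low range. The means were 2.43 ± 2.15 CPM in T cell high clones (SD, n = 6) and 6.91 ± 4.69 CPM in T cell low clones (SD, n = 7). This gave a log2 fold change of -1.47 (SE 0.59), with an unadjusted p of 0.0202 and an adjusted p of 0.672 by edgeR, and it ran from -1.81 to -1.14 with 1 clone left out. These values rest on 0 to 16 reads a clone in T cell high clones and 4 to 59 in T cell low clones. The next peak, 83.9 kb from the main peak, had 6.40 ± 2.14 CPM in T cell high clones (SD, n = 6) and 9.68 ± 2.77 CPM in T cell low clones (SD, n = 7), which gave a log2 fold change of -0.59 (edgeR adjusted p = 0.782). The summed Cdh6 counts had a log2 fold change of -0.23 (SE 0.17, edgeR adjusted p = 0.753).

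Cdh11 encodes OB-cadherin, a cadherin of mesenchymal cells and fibroblasts. No peak of the table lay in its window (gene record chr8:102632095-102785493). The nearest peaks were 607.3 kb before and 1325.3 kb after the gene record. Of 21883 protein-coding genes, 3557 (16.3%) had no peak in the same window. The table lists peaks and not other sequence, so low accessibility below the peak threshold was not measured.

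Of the catenin genes, Ctnnb1 encodes beta-catenin. Its window held 10 peaks, of which 1, the main peak, overlapped the gene record. The 8 tested had a log2 fold change above 0 at 7 and below 0 at 1, against 48.7% of all peaks below 0. The median was 0.57, against 0.01 for all peaks. The main peak, over the start shown above (chr9:120933010-120934209), had a lowest, median and highest level of 29.8, 57.6 and 77.4 CPM in T cell high clones and 28.0, 43.6 and 52.2 CPM in T cell low clones. Of the T cell high clones 6499c4, 6555c3, 6620c1 and 7160c2 were above every T cell low clone, and 2838c3 and 6421c2 were within the T cell low range. The means were 55.0 ± 15.7 CPM in T cell high clones (SD, n = 6) and 41.99 ± 8.99 CPM in T cell low clones (SD, n = 7). They gave a log2 fold change of 0.38 (SE 0.21, edgeR adjusted p = 0.777), and 0.24 without 6555c3.

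The peak 39.7 kb before the Ctnnb1 main peak (chr9:120893428-120894379), outside the gene record, had the smallest p of the set. It was at 4.76 CPM in 2838c3, 15.8 in 6421c2, 30.8 in 6499c4, 36.6 in 6555c3, 24.6 in 6620c1 and 15.96 in 7160c2, the T cell high clones. In the T cell low clones it was at 3.48 CPM in 2699c4, 7.42 in 6419c1, 8.80 in 6419c5, 14.6 in 6422c1, 16.1 in 6499c3, 5.60 in 6556c3 and 4.94 in 6694c2. The groups overlapped through 2838c3, which was as low as the lower T cell low clones, and through 6499c3, which was level with 6421c2 and 7160c2.

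The means at that peak were 21.4 ± 11.5 CPM in T cell high clones (SD, n = 6) and 8.71 ± 4.87 CPM in T cell low clones (SD, n = 7). This gave a log2 fold change of 1.27 (SE 0.42), with an unadjusted p of 0.00568 and an adjusted p of 0.585 by edgeR. It was 1.31 with the dosage correction and from 1.05 to 1.49 with 1 clone left out. Without 2838c3 it was 1.48 (SE 0.37), with an adjusted p of 0.132. Between 6499c4 (T cell high) and 6499c3 (T cell low) the levels were 30.8 and 16.1 CPM.

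The peak 30.8 kb before the main peak (chr9:120902429-120903194) had a lowest, median and highest level of 3.44, 14.6 and 46.4 CPM in T cell high clones and 2.47, 7.47 and 16.99 CPM in T cell low clones. The highest level was in 6555c3, and the groups overlapped. The means were 18.8 ± 15.4 CPM in T cell high clones (SD, n = 6) and 9.27 ± 5.62 CPM in T cell low clones (SD, n = 7). The log2 fold change was 1.002 (SE 0.49, edgeR adjusted p = 0.734), 0.50 without 6555c3 and 1.22 without 2838c3. The peaks 20.2 and 13.2 kb before the main peak had log2 fold changes of 0.77 and 0.82, with adjusted p of 0.813 and 0.798 by edgeR, at mean levels under 10 CPM in both groups. The only Ctnnb1 peak below 0 lay past the far end of the gene, 28.4 kb after the main peak, with a log2 fold change of -0.17.

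**Figure D4:**
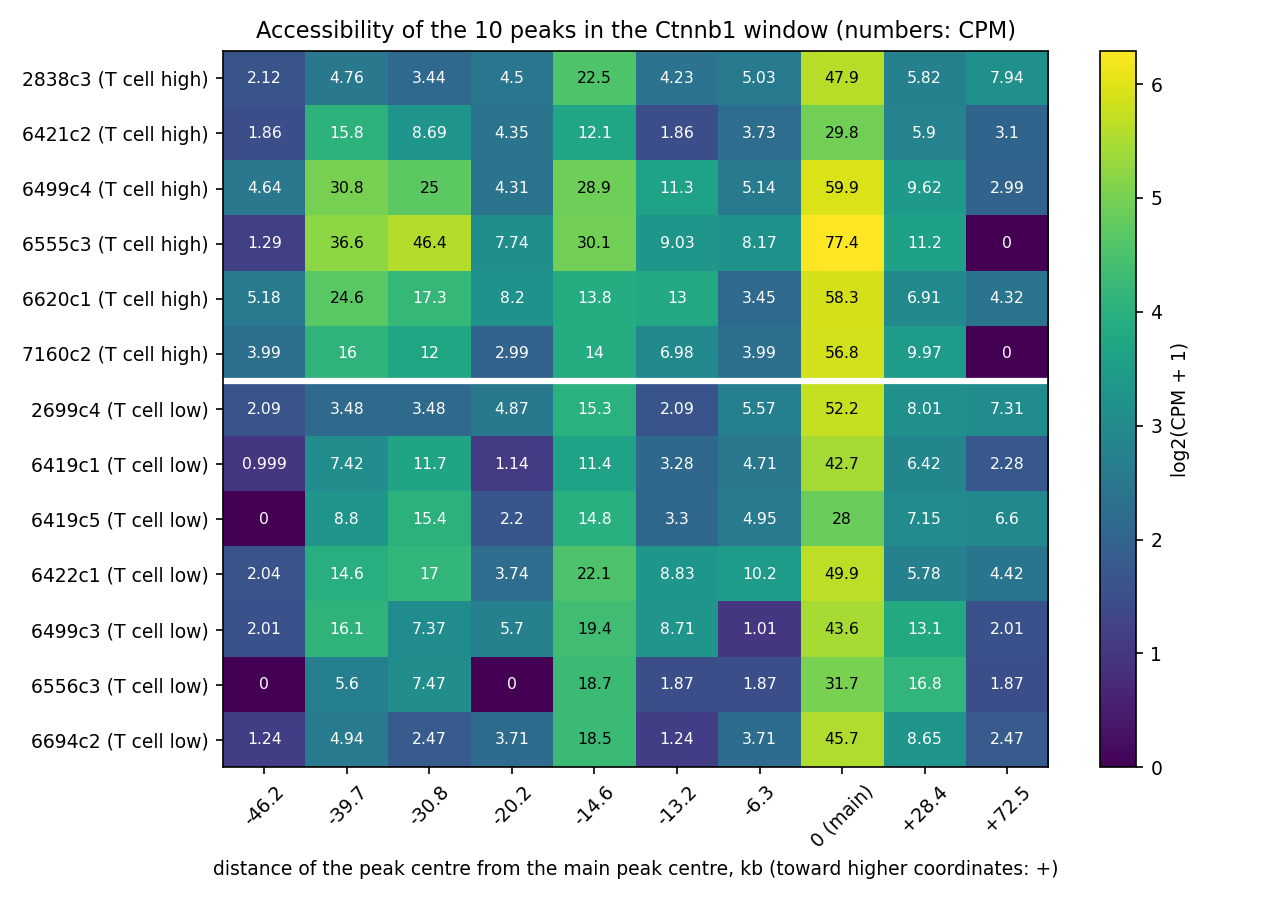
CPM of the 10 peaks of the Ctnnb1 window (x axis, distance of the peak centre from the main peak centre in kb) in each clone (y axis, T cell high above T cell low), with colour giving log2(CPM + 1). At -39.7 kb the T cell high clones other than 2838c3 are between 15.8 and 36.6 CPM, and the T cell low clones are between 3.48 and 16.1 CPM.

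The counts of all Ctnnb1 peaks together averaged 147.9 ± 51.7 CPM in T cell high clones (SD, n = 6) and 103.4 ± 19.1 CPM in T cell low clones (SD, n = 7). The T cell high clones 2838c3 (108.2 CPM), 6421c2 (87.2 CPM) and 7160c2 (126.7 CPM) lay within the range of the T cell low clones, 85.9 to 138.6 CPM, and the other 3 lay above it. The log2 fold change of the sums was 0.54 (SE 0.19), with an unadjusted p of 0.0105 and an adjusted p of 0.624 by edgeR. With 1 clone left out it ran from 0.39 to 0.65. Over the peak in the gene record alone it was 0.43 (edgeR adjusted p = 0.764). That peak is the main peak, whose log2 fold change in the fit over peaks was 0.38. The 0.43 comes from the same counts fitted among sums per gene and is not a separate result. Over all genes 1 of 18043 summed counts was called (0.00554%), and 1387 had an unadjusted p under 0.05 (7.69%). Of the 7 members with peaks 0 were called and 1, Ctnnb1, had an unadjusted p under 0.05.

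Ctnna1 encodes alpha-catenin, which links the junction to actin. Its main peak (chr18:35118387-35119851), which also lies at an end of the predicted gene Gm46617, had a lowest, median and highest level of 39.1, 47.6 and 66.4 CPM in T cell high clones and 38.5, 49.6 and 90.8 CPM in T cell low clones. The groups overlapped, and 6499c3 was highest. The means were 50.5 ± 11.2 CPM in T cell high clones (SD, n = 6) and 55.7 ± 17.8 CPM in T cell low clones (SD, n = 7). They gave a log2 fold change of -0.14 (SE 0.21, edgeR adjusted p = 0.936), and 0.01 without 6499c3. Of 11 peaks in the window 8 were tested, 2 with a log2 fold change above 0 and 6 below, and none had an unadjusted p under 0.05.

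Ctnnd1 encodes p120-catenin, which holds cadherins at the cell surface. Its main peak (chr2:84650338-84651145) lies over the internal start shown above. The lowest, median and highest levels were 19.4, 29.4 and 41.8 CPM in T cell high clones and 12.1, 31.8 and 44.9 CPM in T cell low clones. The T cell low clones spanned the whole T cell high range. The means were 29.4 ± 8.67 CPM in T cell high clones (SD, n = 6) and 30.4 ± 11.2 CPM in T cell low clones (SD, n = 7), which gave a log2 fold change of -0.06 (SE 0.27, edgeR adjusted p = 0.982).

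The 14 Ctnnd1 peaks were all tested, 6 with a log2 fold change above 0 and 8 below, and none had an unadjusted p under 0.05. The closest was a peak inside the gene, 23.7 kb from the main peak (chr2:84626488-84627659), with 5.78 ± 2.29 CPM in T cell high clones (SD, n = 6) and 9.82 ± 5.19 CPM in T cell low clones (SD, n = 7). Its log2 fold change was -0.76 (SE 0.41, edgeR adjusted p = 0.769). The brightest peak of the window, 27.5 kb beyond the main peak, lies at starts of the neighbouring genes Med19 and Tmx2. It averaged 73.4 ± 23.1 CPM in T cell high clones (SD, n = 6) and 76.1 ± 24.5 CPM in T cell low clones (SD, n = 7).

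Set side by side, 1 of the 7 main peaks had an unadjusted p under 0.05, against 553 of the 11106 main peaks tested over all genes (4.98%). Cdh1, Cdh2, Cdh3, Cdh6, Ctnna1 and Ctnnd1 had log2 fold changes below 0 and Ctnnb1 above 0. The level per length of peak, averaged over the 13 clones, was highest for Ctnnb1, at 40.0 ± 11.4 CPM per kb (SD). Then came Ctnnd1 at 37.0 ± 12.02, Ctnna1 at 36.4 ± 10.1, Cdh2 at 32.9 ± 11.7, Cdh1 at 27.7 ± 8.02 and Cdh6 at 25.3 ± 8.20 CPM per kb. Cdh3 was lowest at 9.63 ± 4.56 CPM per kb. Neighbours in this order down to Cdh6 differed by less than their SDs, and Cdh3 lay below Cdh6 by more than the SD of either.

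The genes differed in how much their main peak varied among clones. The SD of log2 CPM over the 13 clones was 0.96 for Cdh2, larger than at 99.8% of the 500 main peaks nearest to it in mean level. It was 0.91 after the dosage correction. Without 6421c2 it was 0.39, larger than at 64.0% of the same peaks and near the median over the main peaks of all genes, so the place of Cdh2 rests on that clone. The SD was 0.60 for Cdh3, 0.52 for Ctnnd1, 0.48 for Cdh6, 0.44 for Cdh1, 0.42 for Ctnnb1 and 0.36 for Ctnna1, between the 49.6 and 87.6 percentiles of their own neighbours in mean. The median over the main peaks of all genes was 0.42. The ratio of the highest to the lowest clone was 12.6 for Cdh2, 5.54 for Cdh3, 3.70 for Ctnnd1, 2.93 for Cdh6, 2.76 for Ctnnb1, 2.39 for Cdh1 and 2.36 for Ctnna1. Without 6421c2 the ratio for Cdh2 was 2.58, below those of Cdh3, Ctnnd1, Cdh6 and Ctnnb1.

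The cadherin switch was looked at clone by clone through the main peaks of Cdh1 and Cdh2. The clone with the lowest Cdh2 main peak, 6421c2 at 7.76 CPM, had 31.4 CPM at Cdh1, among the highest T cell high clones. The next lowest at Cdh2, 7160c2 at 37.9 CPM, had 15.96 CPM at Cdh1, the lowest of the T cell high clones. Across all 13 clones Spearman's coefficient was 0.11 (permutation p = 0.722, adjusted over 21 pairs 0.948) and Pearson's r was -0.09 (permutation p = 0.850, adjusted 0.935). Without 6694c2 and 7160c2, the clones farthest from the median of Cdh1, r was -0.20 and the Spearman coefficient -0.08, with 6421c2 kept. With the dosage correction, over all 13 clones, the Spearman coefficient was 0.35 (permutation p = 0.239, adjusted 0.648) and r was -0.10. Within the T cell high clones the Spearman coefficient was -0.26, and within the T cell low clones it was 0.29.

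**Figure D5:**
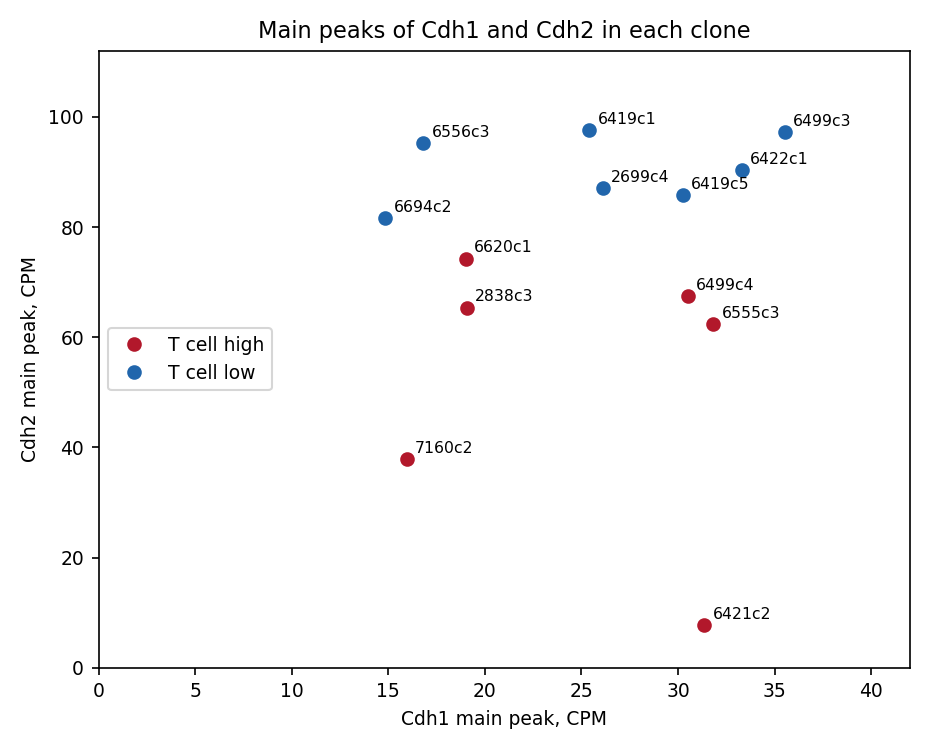
CPM at the Cdh1 main peak (x axis) and at the Cdh2 main peak (y axis) in each of the 13 clones, T cell high in red and T cell low in blue. The T cell high clones lie below the T cell low clones along the Cdh2 axis, and both groups spread over about the same Cdh1 range (15.96 to 31.8 CPM and 14.8 to 35.5 CPM).

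Among the 21 pairs of main peaks none passed an adjusted p of 0.05 by either measure, and 1 had an unadjusted Spearman p under 0.05. This was Ctnna1 with Ctnnd1, at a Spearman coefficient of 0.59 (permutation p = 0.036, adjusted 0.542) and an r of 0.47 (permutation p = 0.103, adjusted 0.921). Without 6421c2 and 6499c3, the clones farthest from the median of Ctnna1, r was 0.24 and the Spearman coefficient 0.40 (permutation p = 0.225). It was 0.60 by Spearman's coefficient within the T cell high clones (permutation p = 0.242) and 0.64 within the T cell low clones (permutation p = 0.139). With the dosage correction, over all 13 clones, it was 0.43 (permutation p = 0.147, adjusted 0.648). The pair with the smallest p was then Cdh1 with Ctnna1, at a Spearman coefficient of 0.59 (permutation p = 0.035, adjusted 0.552). Its r was 0.60 (permutation p = 0.029, adjusted 0.616). Which pair came first thus depended on the correction.

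Genes on other chromosomes were ranked by how closely their main peak followed that of each of the 3 members with the largest SD over the 13 clones, and genes among the closest 3 are named. For Cdh2 these include Usp25 and Ankrd2, with a Spearman coefficient of 0.87 and 0.86 among 10825 genes compared. Pearson's r was lower, at 0.58 and 0.60. In 6421c2, the lowest clone at Cdh2, Usp25 was at 54.6 CPM and Ankrd2 at 8.38 CPM. The lowest of the other clones was below this at both genes, at 51.2 and 5.98 CPM. For Cdh3 these were Mtrf1, Clmn and Spata32, with a Spearman coefficient of 0.83, 0.82 and 0.82 among 10479 genes. For Ctnnd1, on chromosome 2, these were Dusp4, Pskh1 and Armc6, all on chromosome 8. Their Spearman coefficients were 0.97, 0.96 and 0.96 among 10219 genes. These are the largest of many correlations, over libraries that share the differences in depth given above.

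The other genes of the junction were taken from fixed lists. Of 31 adherens junction partners, which include plakoglobin, vinculin, afadin, the nectins and small GTPases, 26 had a tested main peak, 7 with a log2 fold change above 0 and 19 below (median -0.11, against -0.06 for the main peaks of all genes). None passed over all peaks, and 2 had an unadjusted p under 0.05. For the main peaks of all genes the shares were 4.98% under that p and 60.4% below 0. Nectin3, a nectin that joins cells beside the cadherins, had 86.7 ± 19.1 CPM in T cell high clones (SD, n = 6) and 115.4 ± 23.2 CPM in T cell low clones (SD, n = 7), which gave a log2 fold change of -0.41 (edgeR adjusted p = 0.705). Rac1, a GTPase that drives actin assembly at contacts, had 26.9 ± 6.26 CPM in T cell high clones (SD, n = 6) and 37.2 ± 7.44 CPM in T cell low clones (SD, n = 7), which gave a log2 fold change of -0.44 (edgeR adjusted p = 0.730).

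Of 17 other cadherin genes, 6 had a tested main peak (Cdh9, Cdh10, Cdh16, Cdh17, Cdh18 and Cdh24), 5 above 0 and 1 below, with none under an unadjusted p of 0.05 and a median of 0.10. Over the main peaks of all genes 60.4% were below 0 and 4.98% had an unadjusted p under 0.05, with a median of -0.06. Of 15 regulators of the cadherin switch, 11 had a tested main peak, 5 above 0 and 6 below (median -0.05). One had an unadjusted p under 0.05: Esrp1, an epithelial splicing regulator, with 16.2 ± 13.8 CPM in T cell high clones (SD, n = 6) and 5.69 ± 5.29 CPM in T cell low clones (SD, n = 7), which gave a log2 fold change of 1.56 (SE 0.63, edgeR adjusted p = 0.681).

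Of the 7 epithelial tumour markers 5 were above 0 and 2 below (median 0.19), and 2 had an unadjusted p under 0.05. Those below 0 were Krt19, with a log2 fold change of -0.41, and Muc1, with -0.18. The shares for the main peaks of all genes were 60.4% below 0 and 4.98% under that p, with a median of -0.06. Epcam, an epithelial adhesion molecule that is not a cadherin, had 50.03 ± 30.3 CPM in T cell high clones (SD, n = 6) and 19.9 ± 8.69 CPM in T cell low clones (SD, n = 7), which gave a log2 fold change of 1.34 (SE 0.39, edgeR adjusted p = 0.581). Cldn7, a tight junction claudin, had 10.5 ± 6.28 CPM in T cell high clones (SD, n = 6) and 4.73 ± 3.33 CPM in T cell low clones (SD, n = 7), which gave a log2 fold change of 1.15 (SE 0.52, edgeR adjusted p = 0.711). The groups overlapped at both genes. Epcam ran from 8.20 to 93.1 CPM in T cell high clones and from 8.04 to 33.0 CPM in T cell low clones. Cldn7 ran from 2.65 to 18.9 CPM and from 1.36 to 10.4 CPM. The clone with the lowest Cdh2 main peak, 6421c2, had the highest Epcam level, 93.1 CPM, but was the highest at none of the other 6 markers and had 4.66 CPM at Cldn7. The part of the marker levels in the cadherin and catenin values was not tested.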

How the data were processed

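The authors deposited whole-number read counts in 67945 merged ATAC-seq peaks for 13 sorted tumour cell libraries, made with featureCounts 1.5.3 per the file headers on build mm10 per the submitters' processing notes, which also name DESeq2. Which aligner and peak caller were used is not given in the sources used here. The 2 T cell intermediate samples of the labels were not analysed here. Gene records came from RefSeq. The members, windows and lists were chosen with earlier results of these data known.

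Counts were fitted over all peaks with edgeR 4.0.16 (TMM, filterByExpr, quasi-likelihood F-test, two-sided, Benjamini-Hochberg at 0.05, R 4.3.3), and the script was tested on simulated data. SE is the log2 fold change over the square root of F. CPM used TMM library sizes, and log2 CPM a prior count of 2. Counts were also summed per gene over its window. Correlations used 100000 permutations, or every ordering within a group.

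The text names all members, member peaks among the 10 smallest p, list genes with an unadjusted p under 0.05, and the 3 most alike genes, 1 of which is not reported here. Alternatives were DESeq2 1.42.0, its size factors, limma-voom (limma 3.58.1), no filter, a regional dosage offset, other windows, clones left out, and 6419c1 and 6419c5 summed. The p-values of group comparisons set the difference against the spread between clones, each with 1 library. Those of correlations come from permuting clones. Depth limits faint peaks.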

Additional observations from a re-analysis of the deposited data

Results flagged for a closer look

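Among the main peaks and the 10 peaks with the smallest p, 30 groups were checked for a clone far from the others of its group on the log2 CPM scale. The gap to the nearest clone, as a share of the group's range, passed Dixon's 95% critical value in 3 of them, where chance alone gives about 1 in 20, or 1.5. At the Cdh2 main peak 6421c2 was the lowest T cell high clone, with a gap of 0.696. At the Cdh6 peak at chr15:13088558 the same clone was the highest T cell high clone, with a gap of 0.638 and a level of 10.6 CPM. At the Cdh3 peak at chr8:106500562 the T cell low clone 6499c3 was lowest, with a gap of 0.615.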

How the results depend on the processing

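No cadherin or catenin peak, main peak or summed count passed an adjusted p of 0.05 under any alternative run. Of 428 values recomputed, 401 kept their direction and side of the threshold or moved within their error. Part of these could not change. The largest peak of the gene record was the main peak itself for each gene with a main peak but Cdh3, and another prior count leaves the Spearman coefficients as they were. Leaving out 6421c2 for the SD of the main peaks was chosen after seeing the data, and it moved Cdh2 alone, to 0.39. Over all peaks 0 were called, against 47 by DESeq2, 25 without 2838c3 and 2699c4, and 0 to 42 with 1 clone left out, 42 without 2838c3. The 3 member peaks with an unadjusted p under 0.05 became 5 by limma-voom (7.35%, against 8.52% of all peaks), with the dosage offset (7.35% against 6.18%) and without 2838c3 and 2699c4 (7.25% against 9.69%), and 3 to 7 with 1 clone left out. The narrower windows (the gene record, or 10 kb around it) held 2 of the 3, against 6.83% of all peaks. They hold fewer peaks, with 39 of the 77 in the gene records, so 2 in place of 3 does not show a lower share. The share of member peaks was above that of all peaks without 6421c2 (9.72% against 7.58%), 6422c1 (7.46% against 6.58%) or 6499c3 (7.58% against 6.66%). With the dosage offset the main peak log2 fold changes of Cdh1 and Ctnna1 turned to 0.034 and 0.0099. With 1 clone left out the main peak ranges crossed 0 for Cdh3 (-0.37 to 0.10), Ctnna1 (-0.23 to 0.015) and Ctnnd1 (-0.19 to 0.049), and the summed ranges for Cdh1 (-0.14 to 0.013) and Ctnnd1 (-0.061 to 0.11). Over peaks inside the gene record alone the Cdh1 sum was at 0.028. The Cdh1 and Cdh2 Spearman coefficient turned to -0.26 in T cell high clones and -0.082 without the 2 farthest clones. The causes were not tested. No paired analysis was possible because the labels name no pairs of clones across the groups. Their clone names share 1 number alone, in 6499c4 and 6499c3.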
